A study of Mus musculus with 12 samples.

Results

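Integrins are the receptors through which cardiomyocytes (CMs, the beating muscle cells) hold on to the extracellular matrix. Their RNA was examined in CMs that lost Srf, the gene for serum response factor, during maturation or in adulthood. The genes were chosen by symbol as the integrin subunits of the CM and their kinase adaptor. They were the alpha subunits Itga1, Itga3, Itga5, Itga6, Itga7, Itga9 and Itgav, the beta subunits Itgb1 and Itgb5, and Ilk, or 10 of the 23337 genes in the count tables. All 10 passed the filter on low counts in every comparison.

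RNA was compared in 4 groups of mice with 3 samples each, 12 in all. Every animal was on a mixed genetic background, carried a Rosa reporter that Cre recombinase switches on, and was injected with AAV9-cTNT-Cre, an adeno-associated virus with Cre under the promoter of cardiac troponin T, which is active in CMs. Knockout (KO) mice were Srf-flox/flox and control (CTRL) animals were Srf-flox/+, so that CTRL CMs also met Cre and also carried 1 recombined Srf allele. Animals of the neonatal model received the virus at postnatal day (P) 1, and their CMs were isolated at P14. Animals of the adult model received it at P60, with isolation at P90. The virus dose was low, so recombined CMs were scattered in otherwise unrecombined hearts, and fluorescent CMs were sorted after perfusion with collagenase. Each sample is taken as a separate heart from the study's description, and p-values measure the spread between these samples.

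An integrin is a pair of an alpha and a beta subunit. The alpha subunit largely sets the matrix ligand, and the beta subunit's cytoplasmic tail binds talin, kindlin and the integrin-linked kinase (Ilk) complex, which tie the receptor to actin. In CMs these complexes sit at costameres, the ribs that join the outer sarcomeres to the basement membrane, and integrin alpha7 beta1 is the laminin receptor of mature striated muscle.

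Total counts ranged from 9740389 to 23103460 per sample. Srf was the targeted gene, and in P14 CTRL its level was 15.6, 14.0 and 12.1 RPKM (the normalised count per kilobase of exon), against 7.84, 6.72 and 2.38 RPKM in P14 KO. In P90 CTRL Srf was at 17.4, 14.5 and 19.8 RPKM, against 8.03, 7.05 and 6.86 RPKM in P90 KO. Every KO sample was below every CTRL sample of its stage. On the log2 scale Srf changed by -1.23 ± 0.13 (SE) in adult KO (adjusted p = 0.00347 by edgeR), while the neonatal value of -1.30 ± 0.36 had an adjusted p of 0.0628. For neonatal Srf the adjusted p was 0.00223 with DESeq2, 0.0129 without the filter on low counts, 0.0497 with length offsets and 0.00999 in a fit of all 12 samples, where that of adult Srf was 0.180. The neonatal value by edgeR was 0.0220 with the replicate number as a block, and with RLE factors it did not pass, at 0.0647. The summed level of 10 CM marker genes lay between 105949 and 112157 CPM (counts scaled to library size) in P14 CTRL and between 72762 and 79505 CPM in P14 KO, and between 100153 and 108859 CPM in P90 CTRL and 88423 and 90255 CPM in P90 KO. Of these markers, Myh6 and Myl3 were called lower in neonatal KO and 0 of 10 were called in adult KO. Myh6 was the largest part of the sum. It was at 46990 to 62575 CPM in P14 CTRL and 31832 to 38363 CPM in P14 KO. In P90 CTRL it was at 52295 to 60717 CPM, against 36981 to 42712 CPM in P90 KO. The log2 fold change was positive for 1 of the 10 markers in neonatal KO, Actn2, and for 5 of 10 in adult KO. Tnnt2, for example, was at 9395 to 10454 CPM in P90 CTRL and 11402 to 13024 CPM in P90 KO. The 10 endothelial markers summed to 214 to 530 CPM over all 12 samples, 10 fibroblast markers to 49.4 to 327 CPM, 8 mural cell markers to 408 to 681 CPM, and 9 leukocyte markers to 6.05 to 15.7 CPM. Most of the mural sum was Abcc9, which alone was at 253 to 566 CPM. Y-linked genes had counts above a trace in P90 CTRL replicate 3, P14 KO replicate 3 and P14 CTRL replicate 1, so sex appeared mixed within these groups. Every P90 KO sample had a Y-linked count of 0, so sex did not appear balanced in the adult comparison. In bulk samples such as these, fewer cells of a type and less RNA per cell cannot be told apart.

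The promoters of the 2 strongest neonatal responders with a RefSeq entry, Itga5 and Itga3, are shown beside that of Itgb1, whose level hardly moved. Each is a window of 300 bases around the gene's start in RefSeq (build GRCm38.p6), written 5′ to 3′ on the gene's strand, and capitals mark GGGCGG, a GC box letter string, on either strand. Itga5 lies at chr15:103366742-103367041 on the minus strand, Itga3 at chr11:95076665-95076964 on the minus strand, and Itgb1 at chr8:128685404-128685703 on the plus strand. RefSeq gives another window for Itga3, inside the gene, which is not shown.

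Itga5: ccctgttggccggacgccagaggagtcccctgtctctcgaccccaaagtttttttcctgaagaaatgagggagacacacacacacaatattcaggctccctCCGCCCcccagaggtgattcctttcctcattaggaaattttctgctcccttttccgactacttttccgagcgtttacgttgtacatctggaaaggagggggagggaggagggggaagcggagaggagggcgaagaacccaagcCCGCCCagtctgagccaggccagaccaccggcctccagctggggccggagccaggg

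Itga3: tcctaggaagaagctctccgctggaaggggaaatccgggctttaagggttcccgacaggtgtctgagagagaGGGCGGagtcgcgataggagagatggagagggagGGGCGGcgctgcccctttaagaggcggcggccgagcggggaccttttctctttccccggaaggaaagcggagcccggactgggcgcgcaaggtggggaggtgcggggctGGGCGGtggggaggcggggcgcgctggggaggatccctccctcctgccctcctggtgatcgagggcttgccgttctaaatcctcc

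Itgb1: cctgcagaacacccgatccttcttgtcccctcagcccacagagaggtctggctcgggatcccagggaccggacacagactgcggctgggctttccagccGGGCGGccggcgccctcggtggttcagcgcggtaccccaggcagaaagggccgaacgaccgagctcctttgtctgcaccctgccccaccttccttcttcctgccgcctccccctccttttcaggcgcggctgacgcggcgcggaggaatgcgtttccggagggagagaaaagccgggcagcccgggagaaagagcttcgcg

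The Itga5 window held GGGCGG at 2 places, the Itga3 window at 3 and the Itgb1 window at 1, and 35.7% of all 32851 RefSeq promoter windows of this length hold it on either strand. The CArG box, the sequence that SRF binds, was searched on both strands in the 10 RefSeq windows of 8 of the 10 genes. It was in 0 of them, against 1.63% of all windows, a share at which so few windows cannot set these genes apart. The 2 windows of Ilk overlap each other. The Itga9 window (chr9:118711442-118711741) lies inside the gene as the tables give it, from 118606709 on the plus strand, so the region at that start was not searched. These are letter matches in short windows. In the mm10 coordinates of the count tables, the whole genes that rose in neonatal KO span chr15:103344286-103366748 (Itga5, minus strand), chr11:95044482-95076714 (Itga3, minus strand) and chr10:128933813-128958284 (Itga7, plus strand), with 4367, 4853 and 4020 bp of exon. Itga7 shares 8 bp of exon with Mettl7b on the opposite strand. Itga6 and Itga7 were not matched.

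At the level of transcripts, the CM integrin pool was led by Itgb1 and Itga7. Itgb1, which can pair with each alpha subunit of the set, was at 166, 167 and 151 RPKM in P14 CTRL, at 172, 170 and 158 RPKM in P14 KO, at 152, 152 and 136 RPKM in P90 CTRL and at 135, 149 and 146 RPKM in P90 KO. Itga7, the muscle laminin receptor subunit, followed at 110.7 ± 12.7 RPKM (SD, n = 3) in P14 CTRL and 115.0 ± 18.9 RPKM in P90 CTRL. The order in P14 CTRL was then Ilk at 62.4 ± 6.79 RPKM, Itgb5 at 40.1 ± 7.89, Itga5 at 36.2 ± 5.33 and Itga9 at 31.7 ± 3.55, in which the ranges of Itgb5 and Itga5, and of Itga5 and Itga9, overlapped. Itga3, Itga1, Itga6 and Itgav were far lower, at 6.17, 4.87, 4.67 and 2.93 RPKM on average, and each overlapped its neighbour in the order. In P14 KO the ranges of Itgb1 and Itga7 overlapped, at means of 166.4 ± 7.45 and 157.2 ± 6.08 RPKM, and Itga5, at 67.7 ± 5.48 RPKM, moved above Ilk, with overlapping ranges. In P90 KO Itga7 was the highest of the set by its mean, at 148.2 ± 13.2 RPKM against 143.2 ± 7.46 RPKM for Itgb1, and these ranges overlapped.

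**Figure D1:**
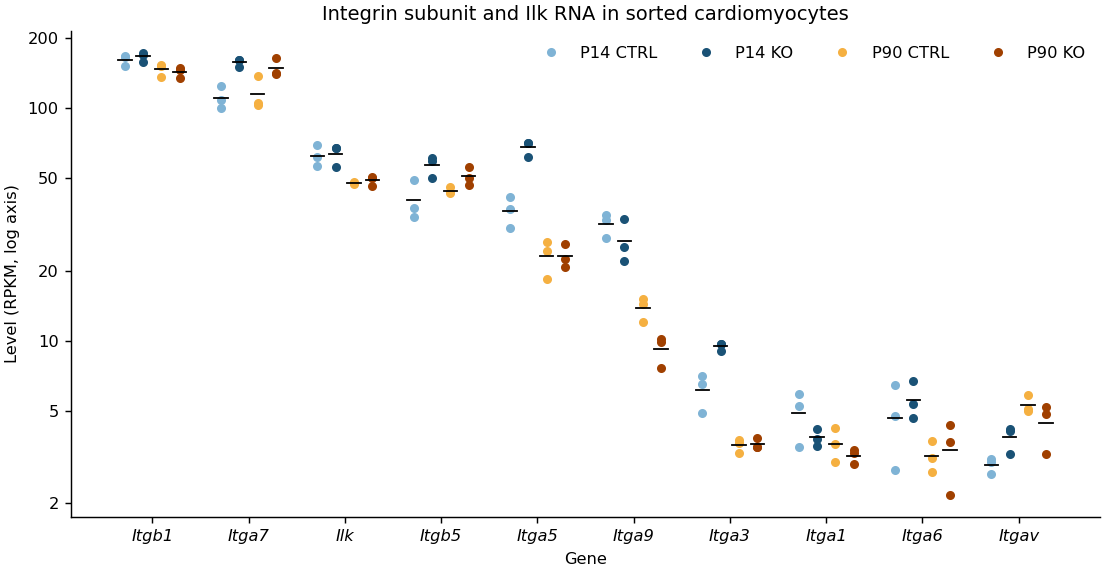
Level of each gene per sample in RPKM (log axis), in 4 groups of 3 samples, ordered by the P14 CTRL mean, with points for samples and a bar for the mean. Itgb1 and Itga7 lie above 99 RPKM in every sample, Itga5 is raised in P14 KO only among the KO groups, and Itga9 is lower at P90 than at P14.

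In neonatal Srf KO 3 alpha subunits rose, and Itgb1 and Ilk did not pass the test. Itga5, the fibronectin receptor subunit, was 1.87 times its CTRL level, Itga3, a laminin receptor subunit, was 1.53 times, and Itga7 was 1.42 times. By edgeR's quasi-likelihood test 3 of the 10 genes rose and 0 fell, where over all genes 3.99% rose and 4.6% fell. KO and CTRL samples did not overlap for 5 of the 10, where 32.7% of all genes tested did not overlap. The median log2 fold change of the 10 was 0.32, against 0.00 over all genes. The part that the lower CM marker sum of these KO samples has in the fold changes was not tested.

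Among the laminin-binding subunits, Itga7 was at 108, 99.5 and 125 RPKM in P14 CTRL and at 160, 150 and 161 RPKM in P14 KO. All KO samples were above all CTRL samples, with a log2 fold change of 0.50 ± 0.12 (SE) and an adjusted p of 0.0376 by edgeR. Itga3 was at 7.08, 4.91 and 6.52 RPKM in CTRL and at 9.07, 9.70 and 9.69 RPKM in KO, again without overlap, with a log2 fold change of 0.62 ± 0.14 and an adjusted p of 0.0365 by edgeR. Itga6, the laminin receptor subunit that is also common in endothelium, was at 6.45, 2.77 and 4.77 RPKM in CTRL and at 5.35, 6.70 and 4.67 RPKM in KO. The Itga6 groups overlapped, and P14 CTRL replicate 2 was the lowest, with a log2 fold change of 0.25 ± 0.28 and an adjusted p of 0.632.

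The largest change of the set was in the fibronectin receptor subunit. Itga5 was at 41.2, 30.6 and 36.6 RPKM in P14 CTRL and at 70.8, 71.0 and 61.4 RPKM in P14 KO. The KO samples lay well above the CTRL samples, with a log2 fold change of 0.90 ± 0.13 and an adjusted p of 0.0116 by edgeR. Itgav, the alpha subunit of the vitronectin receptors, was at 3.10, 2.999 and 2.68 RPKM in CTRL and at 4.17, 3.26 and 4.11 RPKM in KO. Its KO samples were all higher, but its log2 fold change of 0.39 ± 0.14 did not pass, with an adjusted p of 0.124.

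The collagen receptor subunit and Itga9 had negative fold changes that did not pass the test. Itga1, a collagen receptor subunit, had a log2 fold change of -0.34 ± 0.19 with an adjusted p of 0.298 by edgeR, and Itga9, which binds tenascin-C among other ligands, had one of -0.24 ± 0.17 with an adjusted p of 0.415, which turned to 0.06 as a ratio of TPM, a scale that divides by the sum of all per-length levels. Their KO and CTRL samples overlapped.

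Of the beta subunits, Itgb5, a partner of Itgav, was at 49.0, 34.1 and 37.1 RPKM in P14 CTRL and at 59.0, 61.0 and 50.1 RPKM in P14 KO. Its KO samples were all above the CTRL samples, with a log2 fold change of 0.50 ± 0.15, and its adjusted p of 0.0824 by edgeR missed the threshold. It passed with DESeq2 (0.0366), in a fit of all 12 samples (0.0197) and without P14 CTRL replicate 1 (0.0366). By edgeR it did not pass with length offsets (0.0813), with RLE factors (0.0869) or without the filter on low counts (0.0574). In all, Itgb5 was called in 4 of 13 fits. Itgb1 had a log2 fold change of 0.04 ± 0.10, with an adjusted p of 0.853. Ilk, the scaffold at the beta1 tail, was at 69.6, 61.5 and 56.1 RPKM in CTRL and at 67.4, 67.6 and 55.8 RPKM in KO, with a log2 fold change of 0.02 ± 0.12 and an adjusted p of 0.931. The exons of Ilk overlap those of Rrp8 by 137 bp and of Taf10 by 32 bp on the opposite strand in the deposited annotation. The strand setting is not given, so the Ilk count is uncertain. In the GENCODE M21 annotation of the same build, whose exons differ from those of the tables, Taf10 covers 1533 bp (81.6%) of the Ilk exons and Rrp8 321 bp. There Gm49395 covers 685 bp (11.5%) of the Itga1 exons on the same strand, so the Itga1 count is uncertain as well.

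**Figure D2:**
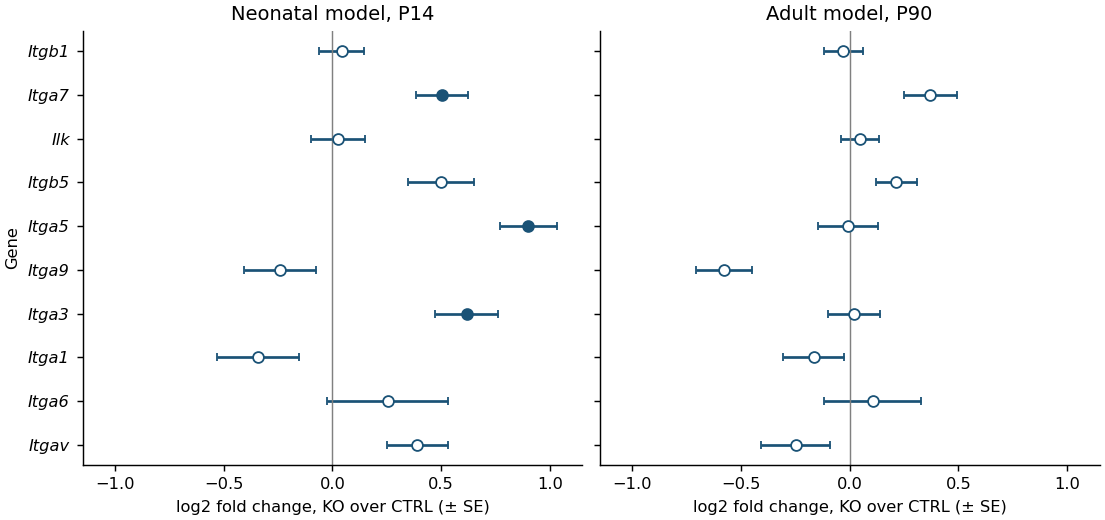
log2 fold change of KO over CTRL (± SE) for each gene in the neonatal model at P14 and the adult model at P90, by edgeR, with filled points at an adjusted p under 0.05. Itga5, Itga3 and Itga7 are filled in the neonatal panel and 0 genes are filled in the adult panel, and the signs of Itgb1, Ilk, Itga6, adult Itga3 and adult Itga5 turned in some fits and that of neonatal Itga9 on the TPM scale.

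The neonatal calls were sensitive to single samples. Without P14 KO replicate 1 or replicate 2 the number of genes that rose was 0, and without replicate 3 it was 1, Itga5. Itga3 was also lost without P14 CTRL replicate 3 (adjusted p = 0.0584 by edgeR), and Itga7 without P14 CTRL replicate 1 (0.0908) or replicate 2 (0.0603). The 3 fold changes kept their direction in all 13 fits, from 0.80 to 1.00 for Itga5, 0.48 to 0.72 for Itga3 and 0.43 to 0.60 for Itga7 on the log2 scale. Without P14 CTRL replicate 2, which had the lowest endothelial and fibroblast marker sums of its group, 2 genes rose and 1 fell, Itga1, at a log2 fold change of -0.53 with an adjusted p of 0.0421 by edgeR. Going from RPKM to TPM shifted the log2 difference of every gene by about 0.31 in neonatal KO. The log2 ratio of Itgb1 was then 0.35, that of Ilk was 0.33 and that of Itga9 changed sign to 0.06.

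In adult Srf KO 0 of the 10 genes passed edgeR's test, where over all genes 0.237% rose and 0.152% fell. At an unadjusted p under 0.05 there were 3, Itga9, Itga7 and Itgb5, and DESeq2 called 1, Itga9. The KO and CTRL samples of these 3 genes did not overlap, where 21.6% of all genes tested did not. The median log2 fold change of the 10 was 0.01, the same as over all genes.

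Itga9 was at 15.2, 14.4 and 12.0 RPKM in P90 CTRL and at 7.67, 10.2 and 9.85 RPKM in P90 KO. Every KO sample was below every CTRL sample, with a log2 fold change of -0.58 ± 0.13 and an adjusted p of 0.0821 by edgeR. With DESeq2 its adjusted p was 0.00386, and without the filter on low counts it was 0.000120. By edgeR it did not pass with RLE factors (0.0842) or in the fit of all 12 samples (0.221). With length offsets the log2 fold change was -0.41, with an adjusted p of 0.137 by edgeR. It was called in 3 of 13 fits. Itga7 was at 137, 103 and 105 RPKM in CTRL and at 140, 163 and 141 RPKM in KO. The KO samples were all higher, though P90 CTRL replicate 1 came close, with a log2 fold change of 0.37 ± 0.12 and an adjusted p of 0.183 by edgeR.

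Itgb5 was at 43.4, 45.6 and 43.1 RPKM in P90 CTRL and at 50.03, 46.8 and 55.9 RPKM in P90 KO, with a log2 fold change of 0.22 ± 0.10 and an adjusted p of 0.297 by edgeR. These KO samples also lay above the CTRL samples. Itga5, which rose in neonatal KO, was at 24.4, 18.4 and 26.6 RPKM in adult CTRL and at 20.7, 22.3 and 26.0 RPKM in adult KO. Itga3 was at 3.74, 3.65 and 3.31 RPKM in CTRL and 3.83, 3.49 and 3.50 RPKM in KO. Both genes overlapped between the groups. Their log2 fold changes were -0.01 ± 0.14 and 0.02 ± 0.12, with adjusted p of 0.988 and 0.954 by edgeR, and the ratio of Itga3 was -0.03 on the TPM scale. The remaining 5 genes lay between -0.25 for Itgav and 0.11 for Itga6 with overlapping groups, and Ilk, at 0.05 ± 0.09, was -0.0048 on the TPM scale.

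The neonatal and adult effects were then compared directly in a fit of all 12 samples. The models also differ in the time from injection to isolation, P1 to P14 against P60 to P90. Every P90 KO sample had a Y-linked count of 0, while P14 KO replicate 3 did not. Stage cannot be told apart from that time, from sex or from differences in handling here. Itga5 was the 1 gene of the 10 whose KO effect differed between stages, where 0.818% of all genes had a higher and 0.958% a lower neonatal effect. The log2 difference was 0.92 ± 0.21 (SE), with an adjusted p of 0.0465 by edgeR's interaction test. The median difference of the 10 was 0.22, against -0.01 over all genes. It was lost in 8 of the 12 fits that left out a sample, namely without P14 CTRL replicate 2, each P14 KO replicate, P90 CTRL replicate 1 or 3, or P90 KO replicate 1 or 2, at values of 0.81 to 0.96 among those fits. The difference was 0.61 ± 0.19 for Itga3, with an adjusted p of 0.109, and 0.65 ± 0.23 for Itgav, with one of 0.150. For Itga7 it was 0.14 ± 0.18 with an adjusted p of 0.723, so a difference between its neonatal and adult changes was not detected.

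Set against each other within a sample, the alpha subunits stood higher relative to the beta subunits in neonatal KO. The summed level of the 7 alpha subunits was 197.2 ± 17.4 RPKM in P14 CTRL and 274.6 ± 11.2 RPKM in P14 KO, and that of Itgb1 and Itgb5 was 201.3 ± 13.7 and 223.1 ± 13.1 RPKM. The alpha to beta ratio was 0.983 ± 0.114 in P14 CTRL and 1.23 ± 0.057 in P14 KO, with every KO sample above every CTRL sample. In adult CMs the ratio was 0.880 ± 0.101 in CTRL and 1.01 ± 0.065 in KO, with overlap. With 3 samples against 3 an exact two-sided permutation test cannot go below p = 0.1, which the P14 ratio reached. Over the 36 such tests made, the Benjamini-Hochberg adjusted p of those at the minimum was 0.225.

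The share of each subunit in the alpha pool was then taken, and 0 of the shares passed the permutation test at an adjusted p under 0.05. Itga7 held 56.1 ± 3.73% of the summed alpha level in P14 CTRL, 57.3 ± 2.71% in P14 KO, 68.4 ± 2.66% in P90 CTRL and 76.0 ± 2.57% in P90 KO. Itga5 held 18.3 ± 1.48% in P14 CTRL and 24.7 ± 1.63% in P14 KO, and Itga9 held 16.2 ± 2.66% and 9.75 ± 1.70%, of an alpha sum that was itself larger in KO. Relative to Itgb1, Itga7 stood at 0.691 ± 0.120 in P14 CTRL and 0.947 ± 0.068 in P14 KO, and at 0.784 ± 0.110 in P90 CTRL and 1.03 ± 0.066 in P90 KO. The KO samples were above the CTRL samples at both stages, by an exact permutation p of 0.1 at each. These ratios do not depend on how the libraries were scaled.

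**Figure D3:**
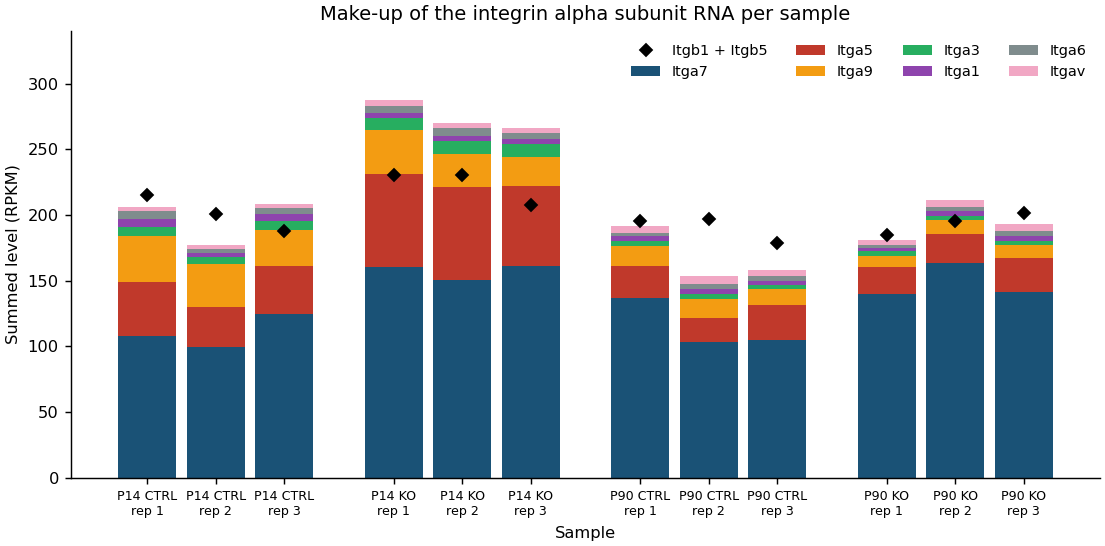
Summed level of the 7 alpha subunits per sample in RPKM, stacked by gene, with diamonds for the sum of Itgb1 and Itgb5. The alpha sum exceeds the beta sum in all 3 P14 KO samples, and also in P14 CTRL replicate 3 and P90 KO replicate 2. Itga7 is the largest part of the alpha sum in all 12 samples.

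Between P14 and P90, the level of Itga9, Itga3, Itga5 and Ilk fell in CTRL CMs and that of Itgav rose. In the fit of the 6 CTRL samples 1 of the 10 genes was higher and 4 were lower at P90, where 14.5% of all genes were higher and 14.9% were lower. The median log2 fold change of the 10 was -0.41, against -0.01 over all genes. This comparison shares the P14 CTRL samples with the neonatal comparison and the P90 CTRL samples with the adult comparison, and stage cannot be told apart from differences in handling between the tables.

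Itga9 was at 34.5, 32.9 and 27.7 RPKM in P14 CTRL and, as given above, at no more than 15.2 RPKM in P90 CTRL. Its level fell by 56.2%, with a log2 fold change of -1.19 ± 0.13 and an adjusted p of 0.000478 by edgeR. The log2 fold change was -0.79 ± 0.17 for Itga3 (adjusted p = 0.00810), -0.64 ± 0.17 for Itga5 (adjusted p = 0.0203) and -0.39 ± 0.11 for Ilk (adjusted p = 0.0322), and for each of these the P90 samples were below the P14 samples.

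Itgav was the gene that rose, from 3.10, 2.999 and 2.68 RPKM in P14 CTRL to 5.10, 5.82 and 4.97 RPKM in P90 CTRL. The groups were well apart, with a log2 fold change of 0.86 ± 0.13 and an adjusted p of 0.00174 by edgeR. Itgb1 (-0.13 ± 0.11), Itgb5 (0.13 ± 0.15) and Itga7 (0.06 ± 0.15) did not pass. The TPM scale, which shifted the log2 difference of every gene by about -0.11 here, gave -0.08 for Itga7. Itga3, Itgav and Itga9 passed in all 13 fits. Itga5 was lost without P14 CTRL replicate 1, P90 CTRL replicate 1 or P90 CTRL replicate 2, at adjusted p of 0.0610 to 0.0813, and Ilk without P14 CTRL replicate 1 or any P90 CTRL replicate, at 0.0860 to 0.131. Without P14 CTRL replicate 2, Itga6 (-0.85, adjusted p = 0.00750) and Itga1 (-0.64, adjusted p = 0.0131) were also called lower by edgeR.

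Several subunits are shared with other cells of the heart. The levels of Itga6 and Itga1 moved with markers of endothelial cells and fibroblasts and with the sum of the mural list. The endothelial sum lay between 243 and 530 CPM in P14 CTRL, 324 and 464 CPM in P14 KO, 220 and 286 CPM in P90 CTRL and 214 and 333 CPM in P90 KO, and 0 of the 10 markers were at a count of 0. Over the 12 samples, deviations from the group means had a Pearson r with the endothelial sum of 0.97 for Itga6, 0.88 for Itga1 and 0.80 for Itgb5, against 0.58 for Itga3, 0.48 for Itga5, 0.34 for Itgb1 and 0.10 for Itga7. With the fibroblast sum the r was 0.91 for Itga6, 0.79 for Itga1, 0.70 for Itgb5 and 0.66 for Itga3, and with the mural sum it was 0.92 for Itga1 and 0.78 for Itga6. Abcc9 made up most of that mural sum, for example 551 of 631 CPM in P90 CTRL replicate 1 and 253 of 466 CPM in P14 KO replicate 2. With the CM marker sum, whose largest part was Myh6, the r was 0.76 for Itga7 and -0.01 for Itgb1. These points share libraries and their depth, and the values are descriptions. Of the endothelial markers 0 of 10 were called in neonatal KO (median log2 fold change 0.10) and 0 of 10 in adult KO (median 0.24), while 7 of 10 were lower in P90 than in P14 CTRL (median -0.85), as were 5 of 9 fibroblast markers (median -1.52). Of the mural markers 1 of 8 was called higher in neonatal KO, Cspg4, from 48.1 ± 16.9 to 121.8 ± 8.27 CPM (1.34 ± 0.23, adjusted p = 0.0157 by edgeR), with a list median of -0.14. The 6 tested leukocyte markers had a median of 0.38 there, with 0 called and a summed level of 6.05 to 10.6 CPM in P14 CTRL and 9.52 to 13.4 CPM in P14 KO. The part of these markers in the differences of the integrin genes was not tested.

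**Figure D4:**
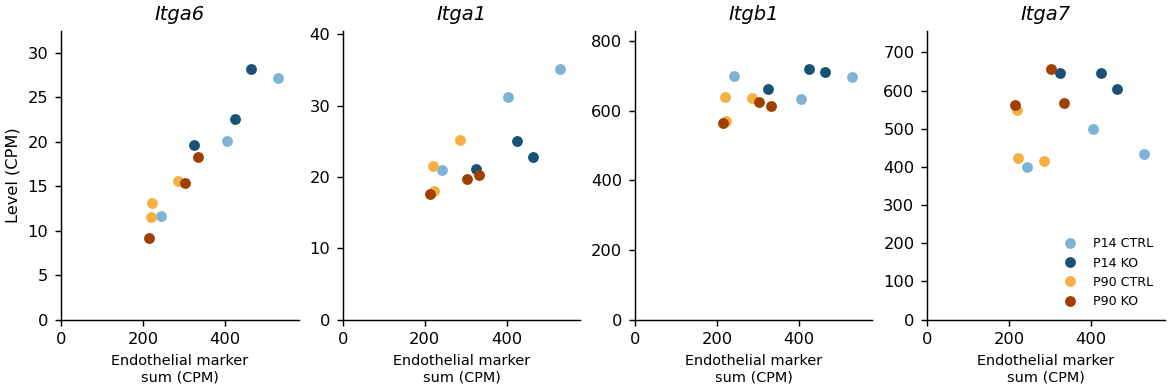
Level of Itga6, Itga1, Itgb1 and Itga7 in CPM against the summed level of 10 endothelial markers in CPM, with 1 point per sample. Itga6 follows the marker sum over the 12 samples (within-group r = 0.97), and Itga7 does not (0.10).

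Genes that act with integrins were taken from 4 lists. Among 32 tested adaptors and linkers, 5 rose and 1 fell in neonatal KO (median log2 fold change 0.05), beside 3.99% and 4.6% of all genes. The gene that fell was Itgb1bp2, melusin, a muscle protein that binds the beta1 tail, from 478.4 ± 56.6 to 135.4 ± 57.5 CPM, with a log2 fold change of -1.83 ± 0.31 and an adjusted p of 0.0153 by edgeR. Those that rose were Ptk2b, a kinase related to focal adhesion kinase (1.91 ± 0.29), the filamin Flnc (0.80 ± 0.16), zyxin or Zyx (0.75 ± 0.13), the Ilk partner Parva (0.52 ± 0.11) and paxillin or Pxn (0.42 ± 0.11). In adult KO 1 of 32 rose, beside 0.237% of all genes, the scaffold Nedd9 (0.75 ± 0.12, adjusted p = 0.0314 by edgeR), and the median was -0.01. Itgb1bp2 was at -0.68 ± 0.15 there, with an adjusted p of 0.0852. The neonatal effect was higher than the adult effect for Ptk2b (2.21 ± 0.37) and Flnc (1.24 ± 0.26).

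Among 27 tested ligands, 2 rose and 1 fell in neonatal KO (median 0.32), counts near the 3.99% and 4.6% of all genes. Among them the collagen IV chain Col4a5 (0.87 ± 0.14) was higher and the laminin chain Lamb3 (-0.83 ± 0.21) was lower. Col4a5 also differed between stages, by 0.99 ± 0.18. In adult KO 0 of 23 were called (median 0.01), and Vtn, vitronectin, was at 0.74 ± 0.20 with an adjusted p of 0.124 by edgeR. Between P14 and P90 in CTRL, 21 of 26 ligands fell and 1 rose (median -1.46), beside 14.9% and 14.5% of all genes, from -2.75 ± 0.30 for Nid2 and -2.73 ± 0.51 for Col4a3 to -0.58 ± 0.19 for Lamb1, with Lama5 higher at 1.48 ± 0.34. Adaptors showed 17 lower and 2 higher of 32 in the same comparison (median -0.41), with Flna at -2.32 ± 0.16, Tgfb1i1 at -1.91 ± 0.27, Flnc at 0.80 ± 0.18 and Ptk2b at 1.65 ± 0.25. Fibroblasts also make many of these ligands, and 5 of 9 fibroblast markers were called lower in the same samples. These markers did not move alike. Col3a1, a matrix gene, was at 46.7 to 160 CPM in P14 CTRL and 17.4 to 24.2 CPM in P90 CTRL, while Pdgfra was at 1.00 to 4.13 and 1.58 to 4.02 CPM. The part of fibroblasts in the fall of the ligands was not tested.

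The dystroglycan and dystrophin complex, the other laminin receptor of muscle, had a median log2 fold change of 0.02 over 15 genes in neonatal KO. There 1 of 15 was called higher and 0 lower, beside 3.99% and 4.6% of all genes. In adult KO 0 of 15 were called (median -0.14), with adjusted p of 0.0585 for Dmd (-0.60 ± 0.12) and 0.152 for Sgce (0.74 ± 0.22). In the interaction 0 of 15 were called, with Dag1 at 0.47 ± 0.15. Between P14 and P90 in CTRL 4 of 15 fell and 2 rose (median -0.07), beside 14.9% and 14.5% of all genes, with Sntb1 at -4.25 ± 0.33, Sgce at -1.79 ± 0.24, Sgcb at 0.79 ± 0.14 and Sgca at 0.39 ± 0.12. Among the other integrin subunits 1 of 8 rose in neonatal KO, beside 3.99% of all genes, with a list median of -0.05. It was the collagen receptor subunit Itga10 (1.79 ± 0.38), from a mean of 0.432 to 1.502 CPM. In adult KO 0 of 5 were called (median -0.36), with Itgal at -0.64 ± 0.46 and Itga8 at -0.46 ± 0.40, and in the interaction 0 of 8, with Itgb6 at -0.42 ± 0.21 and Itgb4 at 0.98 ± 0.51. Itgb6 rose between P14 and P90 in CTRL by 0.51 ± 0.16 on the log2 scale (adjusted p = 0.0453 by edgeR). It was 1 of 6 tested, a share near the 14.5% of all genes that rose.

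**Figure D5:**
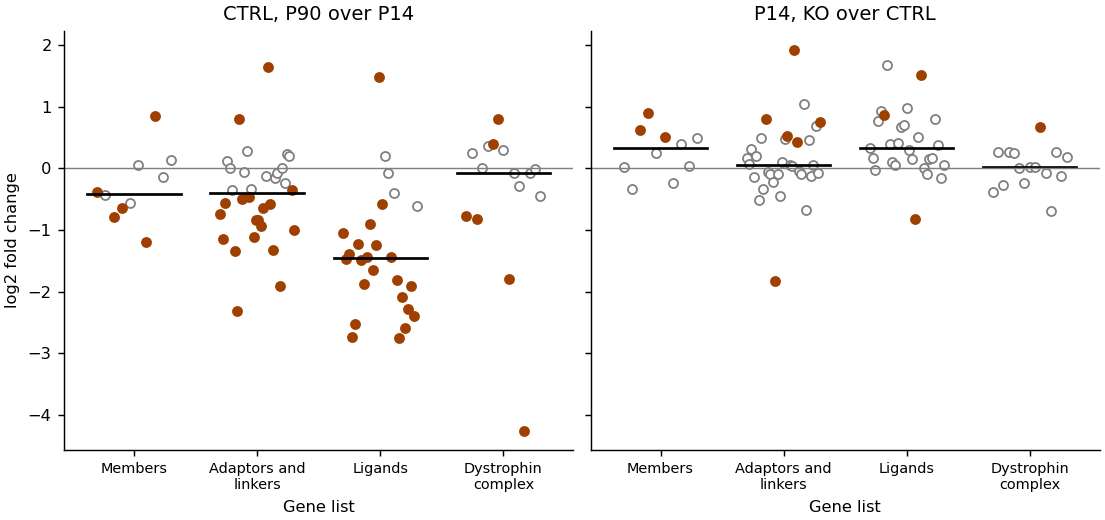
log2 fold change of each gene in 4 lists for CTRL P90 over P14 and for P14 KO over CTRL, with filled points at an adjusted p under 0.05 by edgeR and a bar for the list's median. Ligands lie mostly below 0 in the CTRL comparison (median -1.46) and 3 of the 10 integrin genes are filled above 0 in the neonatal comparison.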

How the data were processed

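RNA-seq counts of 12 samples were analysed. According to the labels, cDNA was made with SMART-Seq v4 and libraries with Nextera XT, and the methods give single-end sequencing. The authors deposited raw read counts per gene, not normalized, in a table for each stage. The submitters' processing notes name CASAVA 1.8, STAR 2.5.3a, featureCounts in Subread 1.5.2 and the build mm10. The strand setting and the handling of multi-mapping reads are not given in the sources used here. Exon lengths come from the same tables.

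Tests were run with edgeR 4.0.16 under R 4.3.3 (filterByExpr, TMM factors, quasi-likelihood F-test, Benjamini-Hochberg adjusted p under 0.05). Each stage was fitted on its 6 samples, the interaction (neonatal minus adult effect) on all 12 and the stage comparison on the 6 CTRL samples. The SE is the size of the log2 fold change over the root of its F value. CPM and RPKM used TMM factors over all 12 samples, and RPKM divides CPM by exon length in kilobases. DESeq2 1.42.0, RLE factors, no filter, length offsets, a replicate block, fits of all 12 samples and leaving out each sample were tried. Pairs of samples within a group differed by 10.4 to 55.8 times the variance that counting alone gives, so 0 pairs were merged. The fits were tested on simulated counts. The genes and lists were chosen with earlier results of these data known. From each further list up to 4 called genes with the lowest and highest fold changes are named, or the 2 with the lowest p where 0 were called, and the others called in neonatal KO (Zyx, Parva) were named after their values were seen. Some genes that this rule selects are not reported here. Promoter windows are from RefSeq. Reads carry no molecular identifiers, and 3 counts correspond to 0.138 to 0.326 CPM by sequencing depth, which covers counting error only.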

Additional observations from a re-analysis of the deposited data

Results flagged for a closer look

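The KO effect on Itga5, the fibronectin receptor subunit, differed between the neonatal and the adult model. The difference of the log2 fold changes was 0.92, from 0.90 in neonatal KO and -0.01 in adult KO, with an adjusted p of 0.0465 by edgeR's interaction test. All 3 neonatal KO samples were above all 3 neonatal CTRL samples, and the adult groups overlapped. Over 18 fits the adjusted p ranged from 0.00337 to 0.133 and passed in 9 of them.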

How the results depend on the processing

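Counts of calls over all genes moved most. The neonatal count of 1078 was 1788 with DESeq2 and 2088 in a fit of all 12 samples, and 111 to 1004 when a sample was left out. The adult count of 46 was 351 with DESeq2, 701 without the filter, 84 with length offsets and 3 in the fit of all 12 samples, and 6 to 51 when a sample was left out. The interaction count of 228 was 912 with DESeq2, 474 without the filter and 119 with length offsets, and 4 to 377 when a sample was left out. The CTRL stage count of 3607 ranged from 2067 to 4768. For the 10 genes, leaving out a sample gave 0 to 3 higher and 0 to 1 lower in neonatal KO, 0 to 1 higher in the interaction and 2 to 6 lower between the CTRL stages. In adult KO 1 was higher without the filter (Itga7, 0.38, adjusted p = 0.0281 by edgeR), and 1 was lower (Itga9) with DESeq2 and 1 without the filter. With length offsets the interaction called 0, with Itga5 at 0.79 and an adjusted p of 0.0667.

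Same-numbered samples were not paired by any label, and the correlation of their deviations was 0.047, 0.148 and 0.36 at P14 and 0.181, -0.000342 and 0.054 at P90, and not every sample correlated best with its own number. With the replicate number as a block, the neonatal fit called 1529 genes, the adult fit 655, the interaction 687 and the CTRL stage fit 3139, 1 of the 10 genes was lower in adult KO (Itga9, adjusted p = 0.00619 by edgeR), and Itgb5 was called in neonatal KO (0.51, adjusted p = 0.0474).

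Values near 0 changed sign. With length offsets neonatal Itgb1 was at -0.027, adult Itgb1 at 0.024 and its interaction at -0.051, Ilk at -0.031 in adult KO and 0.068 in the interaction, and Itga5 at 0.046 in adult KO, where it was also 0.00069 without the filter and 0.0051 with the block. When a sample was left out, neonatal Itga6 ranged from -0.012 to 0.56, Itgb1 from -0.0038 to 0.095 and Ilk from -0.047 to 0.13. Adult Itga3 ranged from -0.031 to 0.052, Itga6 from -0.099 to 0.34, Itga5 from -0.15 to 0.11, Itgb1 from -0.080 to 0.011 and Ilk from 0.026 to 0.081. In the interaction Itga6 ranged from -0.10 to 0.47, Ilk from -0.068 to 0.070 and Itgb1 from 0.049 to 0.14, and between the CTRL stages Itga7 from -0.087 to 0.16. Of the other fold changes of the 10 genes under these settings, 461 kept their direction and side of the threshold, 27 lost a call and 11 gained one. The cause of these shifts was not tested.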

Other observations

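Itgb6, the epithelial integrin beta subunit and not among the 10 genes, was at a mean of 10.4 RPKM in P14 CTRL, 8.00 in P14 KO, 14.7 in P90 CTRL and 15.2 in P90 KO, above the mean of Itgav in every group. The Itga7 gene was most like Pygo2 (Pearson r = 0.94), Scap (0.92) and Mybpc3 (0.91) in log2 CPM over the 12 samples, and Itgb1 was most like Usp7 (0.94), Cntn3 (0.94) and Gcnt2 (0.93). These are descriptions over samples that share groups.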
